A study of Mus musculus with 30 samples.

Results

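The 8 genes that help make a cortical interneuron recognisable were followed through sorted interneurons of the mouse medial prefrontal cortex (mPFC): Gad1, Gad2 and Slc32a1 of GABA synthesis and transport, and the transcription factors Lhx6, Dlx1, Dlx2, Dlx5 and Sox6. The list was chosen by name, and all 8 were among the 23993 genes of the deposited table. Tomato-labelled cells were sorted from mice in which a Cre driver switched on tdTomato (Ai9), and their RNA was sequenced and given as FPKM, fragments scaled by transcript length and by the mapped total. The study asked how Sst cells differ between the sexes and after 14 days of chronic unpredictable stress (CUS), and how they differ from Pvalb cells.

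All mice were labelled C57BL/6, carried the tdTomato reporter in the heterozygous state and were, by the study's methods, 6 to 12 weeks old. The Sst-Cre driver gave 7 libraries of unstressed females, 7 of unstressed males and 3 of males after CUS, and the Pvalb-Cre driver gave 7 libraries of unstressed males. The red label marks every cell in which Cre was ever active, so a sorted cell need not still have transcribed the driver gene. The male Sst controls fell under titles of 2 kinds, 4 libraries with running numbers ("numbered") and 3 with a date code ("dated"). All CUS titles were dated and all female titles were numbered. In each male control group a pair of libraries differed by less than 10% of the spread between the next closest pair (SD of the log2 ratio 0.0212 against 0.267 in Sst, 0.0170 against 0.225 in Pvalb). Each pair was averaged and counted as 1 sample, leaving 22 samples from 24 libraries. The study's text counts its replicates as mice, but the labels did not tie libraries to mice, and where libraries share an animal the p-values measure only the spread between these samples. In sorted bulk samples, fewer cells of a type and less RNA per cell cannot be told apart. Labelled samples without a column (6) were not analysed here.

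As background, Gad1 and Gad2 encode the glutamate decarboxylases that make GABA, and Slc32a1 encodes the transporter that loads GABA into synaptic vesicles. The Dlx homeobox genes specify GABAergic precursors in the embryonic ventral forebrain. Lhx6 acts in cells born in the medial ganglionic eminence, the origin of Sst and Pvalb interneurons, and Sox6 acts downstream of Lhx6 in their positioning and maturation. Sox6 is also used outside neurons, among others in oligodendrocyte precursors.

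In the GRCm38.p6 assembly Gad2 lies at chr2:22621015-22693877, Lhx6 at chr2:36081950-36105992, Gad1 at chr2:70561303-70602014 and Slc32a1 at chr2:158607260-158615747. Dlx1 (chr2:71528113-71533981) and Dlx2 (chr2:71543408-71546754) are neighbours with 9426 bases between them, Dlx5 lies at chr6:6877801-6882068, and Sox6 lies at chr7:115470872-116040776. The promoters of the Dlx1 and Dlx2 pair are shown because the levels of these neighbours ran together across samples (Pearson r of log2(FPKM + 1) 0.81). This was not particular to the neighbours, since Dlx2 ran more closely with Dlx5 on another chromosome (0.86). Each stretch holds 250 bases before and 50 after the start of transcription, from RefSeq on GRCm38.p6, 5′ to 3′ on the gene's own strand, with the GC-box core GGGCGG (or CCGCCC, the same letters on the other strand) in capitals. Dlx1 is on the plus strand at chr2:71529195-71529494 and Dlx2 on the minus strand at chr2:71546705-71547004. The Dlx1 stretch lies wholly inside the gene span given above. The start it flanks is thus downstream of the first base of that span, 71528113.
Dlx1: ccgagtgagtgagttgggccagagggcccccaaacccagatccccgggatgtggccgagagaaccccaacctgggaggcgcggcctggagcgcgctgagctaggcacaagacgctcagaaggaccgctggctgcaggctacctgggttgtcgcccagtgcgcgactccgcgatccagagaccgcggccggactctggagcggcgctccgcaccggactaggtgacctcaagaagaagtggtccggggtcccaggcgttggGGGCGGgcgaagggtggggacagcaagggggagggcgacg
Dlx2: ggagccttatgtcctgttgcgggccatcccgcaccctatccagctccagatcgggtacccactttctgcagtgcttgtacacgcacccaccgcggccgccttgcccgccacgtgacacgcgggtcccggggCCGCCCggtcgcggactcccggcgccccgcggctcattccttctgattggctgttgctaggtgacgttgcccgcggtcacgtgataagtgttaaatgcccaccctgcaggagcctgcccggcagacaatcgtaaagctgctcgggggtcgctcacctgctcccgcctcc
Each promoter held 1 match to the GC-box core, which 35.7% of 32851 mouse promoters of this length also held on either strand. Neither held TAATT, a homeodomain core that 27.0% of those promoters held. The Dlx1 promoter had 27 CpG dinucleotides and the Dlx2 promoter 29, against a median of 7 over all promoters. Of the 8 members, 7 had a promoter entry.

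The GABA genes were low in every library. Over the 24 libraries Gad1 ranged from 0 to 2.05 FPKM with a median of 0.461, Gad2 from 0.137 to 4.33 with a median of 0.699, and Slc32a1 from 0 to 1.84 with a median of 0.352. The study's methods took a gene as expressed above 0.4 FPKM. Gad1 passed that level in 14 libraries, Gad2 in 17 and Slc32a1 in 11, and all 3 passed it together in 8. By its mean over the 22 samples Gad1 stood above 42.4% of all genes in the table and Gad2 above 44.4%. Gad2 was above Gad1 in 16 of 24 libraries, and FPKM is scaled by length, so both levels can be set side by side.

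The transcription factors fell into a high and a low kind. Sox6 was above 0.4 FPKM in all 24 libraries, from 1.88 to 12.1 with a median of 6.23, and was the highest member in 23 of them. The exception was the Sst female library SST-F, where Dlx1 reached 5.29 FPKM and Sox6 4.51. Lhx6 had a median of 0.124 FPKM, ranged from 0 to 1.60 and was listed at 0 in 6 libraries. Dlx1 had a median of 0.211 FPKM and was listed at 0 in 7 libraries, Dlx2 in 16 and Dlx5 in 17. Library SST-F held the highest Gad2, Dlx1, Dlx2 and Dlx5 of all.

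The file gives no read counts, but low FPKM values fell on steps whose spacing gives a relative depth, from 0.451 to 2.46 times that of the Sst female library 2. Taken with the longest annotated transcript, those steps put the median library at about 7.7 fragments for Gad1, 15 for Gad2, 4.5 for Slc32a1, 2.2 for Lhx6 and 3.7 for Dlx1, against 242 for Sox6. Small differences in all members but Sox6 thus rest on few fragments.

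**Figure D1:**
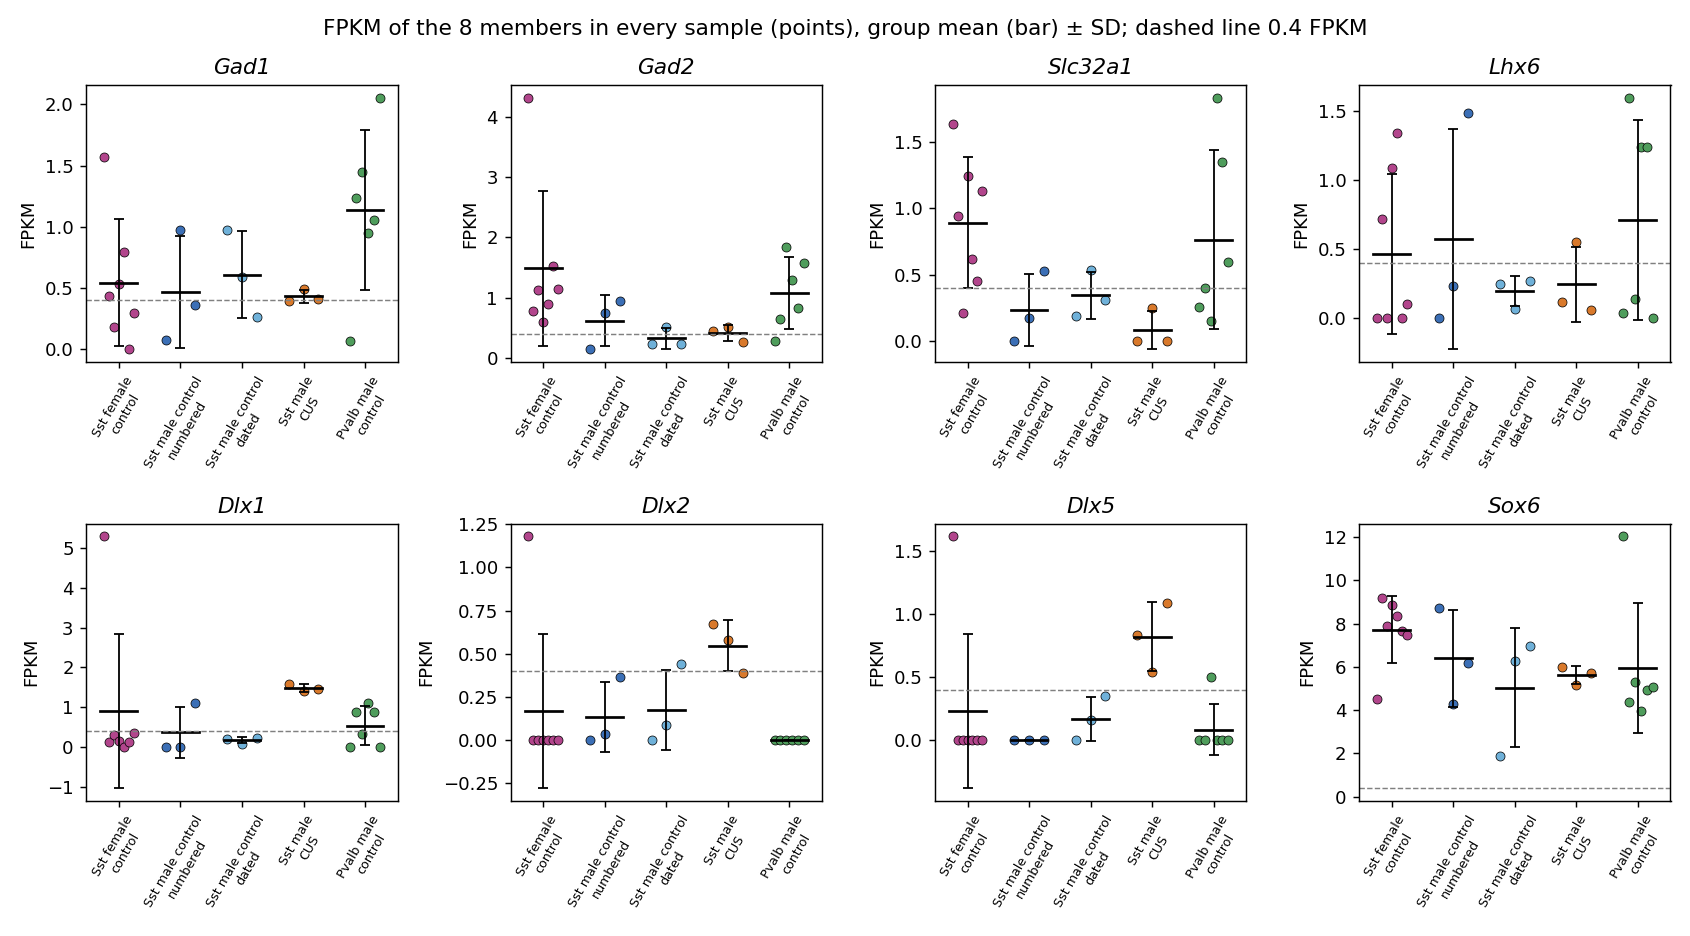
FPKM of each member (vertical axis, own scale per panel) in the 22 samples, by group; points are samples, bars are group means with SD and the dashed line is 0.4 FPKM. Sox6 lies above the line in every sample, Dlx2 and Dlx5 lie at 0 in most, and 1 Sst female sample (SST-F) stands far above its group in Gad2, Dlx1, Dlx2 and Dlx5.

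The defining markers of other cells were read beside these values. Slc17a7, the vesicular glutamate transporter of excitatory neurons, was above the sum of Gad1 and Gad2 in all 24 libraries, with a ratio of that sum to Slc17a7 between 0.0781 and 0.717. P2ry12, a microglial receptor, was 121 to 2915 times the same sum. Summed FPKM over 12 microglial markers ran from 2630 to 9473, where the 8 members summed to between 3.70 and 20.1. Sst itself was lower in the Sst libraries (mean 9.24 FPKM, n = 13) than in the Pvalb libraries (23.3, n = 6; limma log2 difference -2.05, SE 0.63, adjusted p = 0.0488), and was listed at 0 in 1 male control. Within the Sst controls it was at 15.5 ± 15.9 FPKM (SD, n = 7) in females and 1.90 ± 2.27 (n = 6) in males (log2 difference 2.38, SE 0.55, adjusted p = 0.0185 in limma). Without the female library SST-F the Sst mean of the Sst samples was 5.91 FPKM (n = 12; log2 difference from Pvalb samples -2.31, SE 0.54, adjusted p = 0.0119). Pvalb was higher in the Pvalb libraries (2.64 against 0.373 FPKM, log2 difference Sst minus Pvalb -1.42, SE 0.27, adjusted p = 0.00441). In 3 of the 7 Pvalb libraries labelled male, Xist, the transcript of the inactive X chromosome, was at 300.2 to 333 FPKM, which goes against the label, and the other 4 had 0.439 to 6.64. In the dated libraries 53.5% to 75.7% of summed FPKM came from small nucleolar and Cajal body RNAs, against 1.87% to 8.29% in the numbered ones. The part of these features in the levels of the members was not tested.

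**Figure D2:**
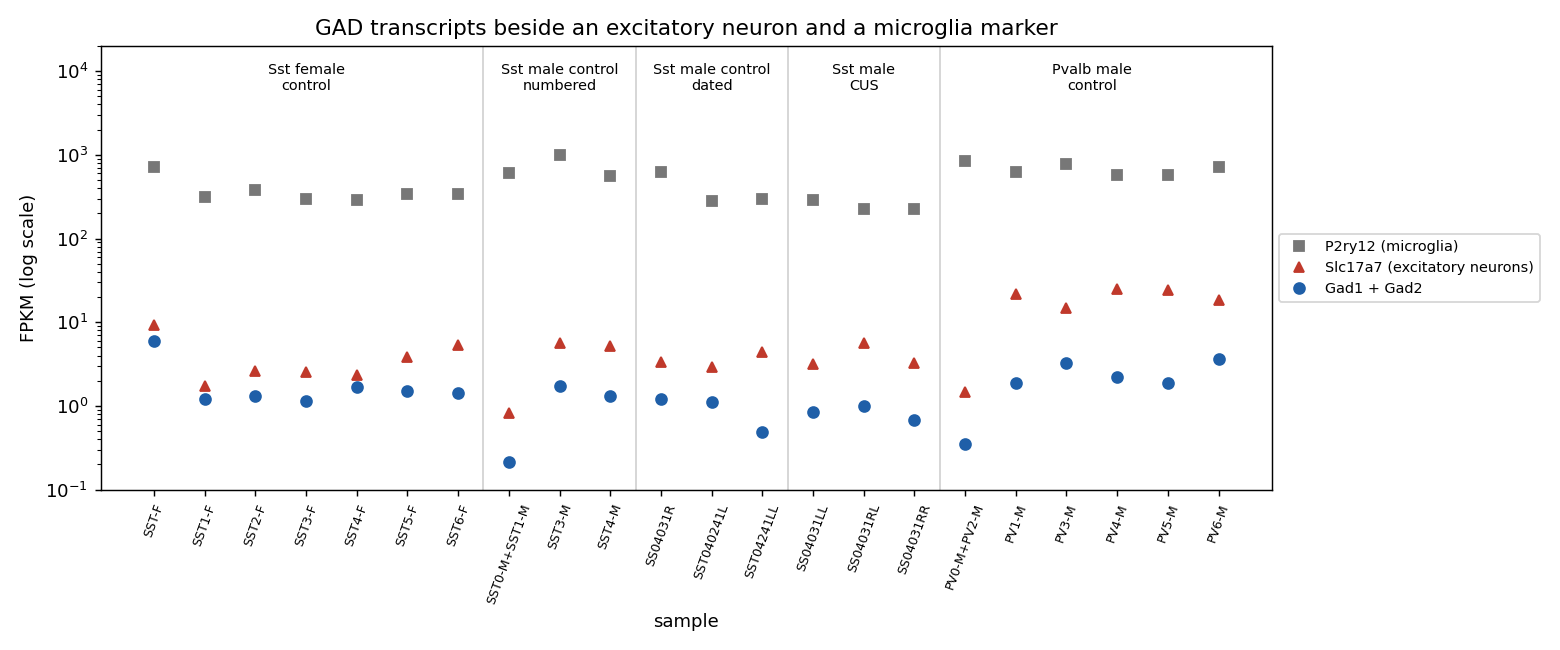
FPKM on a log scale (vertical axis) in each of the 22 samples (horizontal axis, by group) for the sum of Gad1 and Gad2, for Slc17a7 and for P2ry12. In every sample the GAD sum lies below Slc17a7, and P2ry12 lies at least 121 times above the GAD sum.

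Female and male Sst controls were compared to ask whether the sexes differ. None of the 6 members that passed the low-value filter (mean above 0.4 FPKM over the samples compared) passed limma's test on log2(FPKM + 1) at an adjusted p of 0.05, where 11.7% of the 14498 genes tested did. At an unadjusted p under 0.05 there were 2, Gad2 and Slc32a1, against 30.6% of all genes. Both had higher means in females. Fold changes on the log2(FPKM + 1) scale understate the change of genes this low.

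Gad2 was at 0.597 FPKM in the lowest female sample, 1.13 in the median and 4.33 in the highest, and at 0.140, 0.372 and 0.950 in the males. The groups overlapped between 0.597 and 0.950 FPKM. The mean was 1.48 ± 1.29 FPKM (SD, n = 7) in females and 0.467 ± 0.329 (n = 6) in males, and the log2 difference was 0.67 (SE 0.26, adjusted p = 0.102, unadjusted p = 0.0222). Against the 3 dated males alone every female sample was higher, with an adjusted p of 0.0692 in limma (41.5% of genes were called there, and 18.8% were higher without overlap), and against the 3 numbered males the adjusted p was 0.357 (3.41% of genes called). Over all alternatives the adjusted p ran from 0.0618 to 0.811.

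Slc32a1 was at 0.214, 0.943 and 1.64 FPKM (lowest, median, highest) in females and at 0, 0.247 and 0.537 in males. Of the 7 females 5 lay above the highest male. The means were 0.892 ± 0.495 FPKM (SD, n = 7) and 0.289 ± 0.213 (n = 6), with a log2 difference of 0.53 (SE 0.20, adjusted p = 0.0979 in limma, 0.0543 to 0.345 over the alternatives). The male mean lay below the 0.4 FPKM filter, so Slc32a1 entered this fit only through its female values. Gad1, which makes the same transmitter, had nearly equal means of 0.544 ± 0.518 FPKM in females and 0.539 ± 0.374 in males (log2 difference -0.02, SE 0.23, adjusted p = 0.960).

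Among the transcription factors, Sox6 was at 4.51, 7.91 and 9.18 FPKM in females and at 1.88, 6.23 and 8.72 in males. Its mean was 7.72 ± 1.54 FPKM (SD, n = 7) in females and 5.72 ± 2.36 (n = 6) in males, and the log2 difference of 0.45 (SE 0.26) did not pass (adjusted p = 0.260 in limma). Lhx6 (log2 difference 0.06, SE 0.27) and Dlx1 (0.28, SE 0.37) differed by less than their SE, with adjusted p of 0.893 and 0.634. The Dlx1 value rested on SST-F. Without it Dlx1 fell below the filter and its mean log2 difference was -0.067 (exact permutation p = 0.838). Dlx2 and Dlx5 lay below the filter and were tested by an exact two-sided permutation of the samples, whose smallest p here is 0.00117. Dlx2 was listed at 0 in 6 of 7 females and gave p = 0.890 in the exact test, and Dlx5, at 0 in the same 6 females, gave p = 1.

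Sst and Pvalb controls were then compared. None of the 6 members tested passed, against 7.8% of 14524 genes, and none had an unadjusted p under 0.05, against 25.1% of genes. The Sst samples held both sexes and the Pvalb samples carried male labels alone, so sex and line were partly mixed. Gad1 had the largest difference of the 6. It was at 0, 0.432 and 1.57 FPKM (lowest, median, highest) in the 13 Sst samples and at 0.0678, 1.14 and 2.05 in the 6 Pvalb samples, and the lowest Pvalb value was that of the averaged pair. The log2 difference (Sst minus Pvalb) was -0.45 (SE 0.22, adjusted p = 0.203 in limma). Without that pair it was -0.64 with an adjusted p of 0.0403 (14.7% of 14507 genes were called there), and without SST-F and both averaged pairs, an alternative added after the data were seen, it was -0.67 (SE 0.18, adjusted p = 0.0121, with 22.8% of genes called). Over all alternatives the adjusted p ran from 0.0121 to 0.608. In the averaged Pvalb pair the excitatory neuron gene Slc17a7 was at 1.48 FPKM, against 14.8 to 24.7 in the other Pvalb samples. The part of this in the Gad1 values was not tested.

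The other members lay closer between the lines. Gad2 had means of 1.01 ± 1.07 FPKM (SD, n = 13) in Sst and 1.08 ± 0.591 (n = 6) in Pvalb samples, and Slc32a1 0.614 ± 0.489 and 0.766 ± 0.676. Sox6 had means of 6.79 ± 2.14 FPKM in Sst and 5.95 ± 3.02 in Pvalb samples, and its highest value of all, 12.04 FPKM, was in the averaged Pvalb pair where Gad1 was lowest for its group. Adjusted p for these 3 in limma were 0.818, 0.810 and 0.692. Lhx6 had a log2 difference of -0.23 (SE 0.26) and Dlx1 of -0.11 (SE 0.31). Dlx2 was listed at 0 in all 6 Pvalb samples and in 8 of 13 Sst samples (exact permutation p = 0.221), and Dlx5 in 5 and in 10 (exact permutation p = 1).

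Among the Pvalb samples, high Lhx6 and Dlx1 values lay in the libraries with high Xist, a pattern picked after the values were seen. The 3 libraries with high Xist had Lhx6 at 1.60, 1.24 and 1.24 FPKM and Dlx1 at 0.885, 1.11 and 0.868. The other 3 samples had Lhx6 at 0.0344, 0.134 and 0 FPKM and Dlx1 at 0, 0.310 and 0, so the 2 sets did not overlap in either gene, as for 22.3% of 14146 genes that were higher in the high-Xist libraries. Leaving out the high-Xist libraries, the line difference of Dlx1 turned from -0.11 to 0.31 and that of Slc32a1 from -0.11 to 0.23, with adjusted p of 0.797 and 0.771 in limma. Lhx6 fell below the filter there, and its mean log2 difference turned from -0.23 to 0.35 (exact permutation p = 0.25).

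Male Sst cells after CUS were compared with unstressed male Sst cells. None of the 4 members tested passed limma at an adjusted p of 0.05, and 1 of 14319 genes did (0.00698%). At an unadjusted p under 0.05 there was 1 member, Dlx1, against 7.47% of genes. In the 3 CUS libraries Dlx1 was at 1.59, 1.41 and 1.44 FPKM. In the dated controls it was at 0.190, 0.0774 and 0.232, and in the numbered controls at 0 (the averaged pair), 0 and 1.11. Every CUS library was thus above every control, and 3.87% of genes were higher without overlap. The means were 1.48 ± 0.0967 FPKM (SD, n = 3) and 0.268 ± 0.423 (n = 6), with a log2 difference of 1.02 (SE 0.27, unadjusted p = 0.00300, adjusted p = 0.641, and 0.112 to 0.920 over the alternatives). The control mean lay below the 0.4 FPKM filter, so Dlx1 entered this fit only through its CUS values.

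Dlx5 lay below the filter and was at 0.839, 0.540 and 1.09 FPKM in the CUS libraries. In the dated controls it was at 0, 0.164 and 0.350, and in all numbered controls it was listed at 0. The groups did not overlap, as for 3.57% of genes that were higher when no filter was set. The exact permutation test gave p = 0.0238, which is the smallest p that 3 against 6 samples allow, and 0.310 after adjustment over the 13 such tests of members below the filter. Against the numbered controls alone Dlx5 passed the filter and limma's threshold (log2 difference 0.86, SE 0.22, adjusted p = 0.0419), where 16.1% of genes did. Against the dated controls it had an adjusted p of 0.647 (log2 difference 0.64, SE 0.22). The numbered controls were all at 0 and the dated mean was 0.171 FPKM, below the 0.4 FPKM filter. Dlx5 thus entered either fit only through its CUS values, and neither fit is separate support. Where limma tested it, its adjusted p ran from 0.0419 to 0.694.

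Dlx2 followed its neighbour at lower values, 0.675, 0.579 and 0.389 FPKM after CUS. The dated controls had 0, 0.0878 and 0.438 and the numbered controls 0, 0.0332 and 0.366, so the lowest CUS value lay inside the control range. The exact permutation p was 0.0476, and 0.310 after adjustment. Against the dated controls alone, Dlx1 had a log2 difference of 1.09 (SE 0.18, adjusted p = 0.647 in limma) and was again higher without overlap, as were 9.33% of 14186 genes, of which 0.00705% were called. The dated mean of Dlx1, 0.166 FPKM, was also below the filter. Of the 3 dated controls only 1 (SS04031R) had the same date code as the 3 CUS titles, with Dlx1 at 0.190, Dlx2 at 0 and Dlx5 at 0 FPKM, so for the other controls that code and the stress cannot be told apart. In SS04031R the microglial markers summed to 7209 FPKM, against 3288 and 3587 in the other dated controls and 2630 to 3054 after CUS. Its oligodendrocyte markers summed to 391 FPKM, against 1284 and 1082 in those controls and 1600 to 1967 after CUS. The part of these differences in its Dlx values was not tested. The comparisons against dated and numbered controls share the CUS libraries and are no independent repeats of each other.

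**Figure D3:**
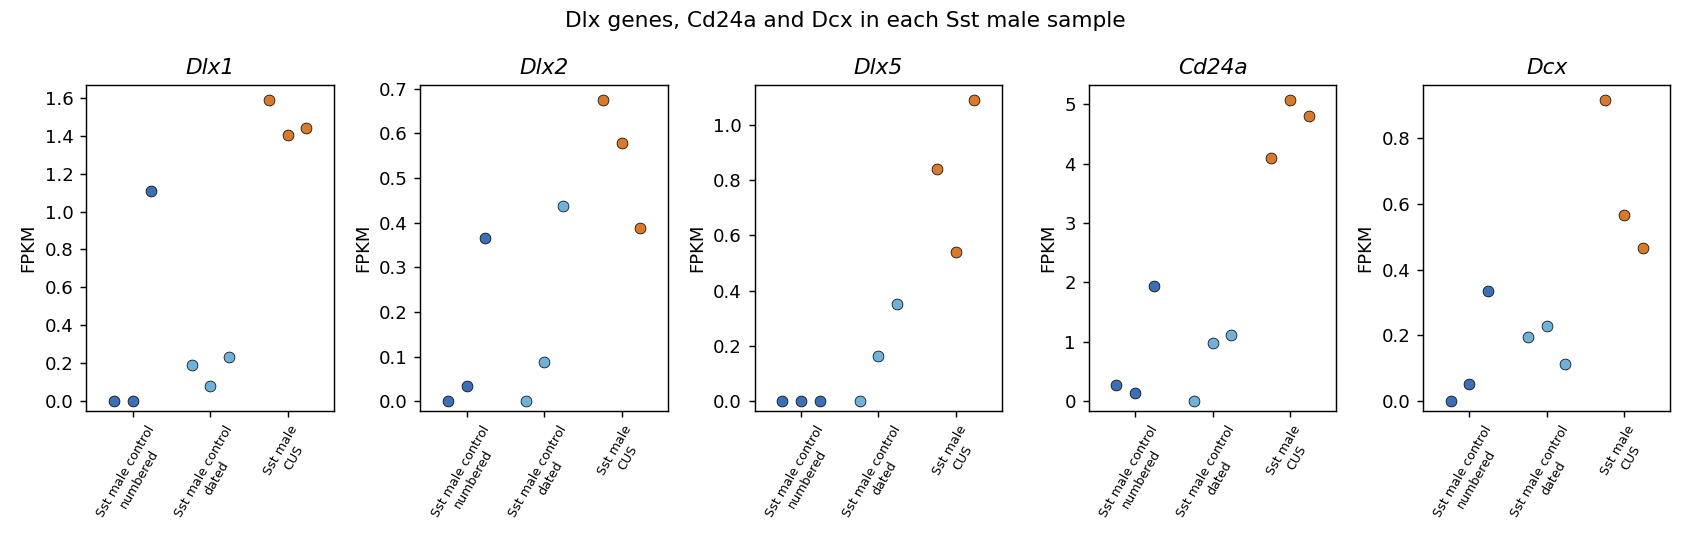
FPKM (vertical axes, own scale per panel) of Dlx1, Dlx2, Dlx5, Cd24a and Dcx in each of the 9 male Sst samples, grouped as numbered controls, dated controls and CUS (horizontal axis). In Dlx1, Dlx5, Cd24a and Dcx the 3 CUS points lie above all 6 controls, and in Dlx2 the lowest CUS point lies below 1 dated control. Cd24a was picked for likeness to Dlx1 over samples that include these, and Dcx after its values were seen. Sox11, Mki67 and Top2a were read too and are not plotted, and each had at least 1 CUS value inside the control range.

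The GABA genes showed no such separation after CUS. Gad1 was at 0.395, 0.490 and 0.409 FPKM after CUS and at 0.0718 to 0.970 in the 6 controls, and Gad2 was at 0.442, 0.519 and 0.262 against 0.140 to 0.950. All CUS values of both lay inside the control range, with log2 differences of -0.07 (SE 0.25) and -0.04 (SE 0.24) and adjusted p of 0.916 and 0.957 in limma. Slc32a1 was listed at 0 in 2 CUS libraries and at 0.253 FPKM in the third, against a control mean of 0.289 ± 0.213 FPKM (exact permutation p = 0.238). Lhx6 gave an exact permutation p of 0.929. Sox6 was at 5.99, 5.16 and 5.74 FPKM, in the middle of controls that spread from 1.88 to 8.72 (log2 difference 0.08, SE 0.37).

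Markers of other cells also differed between CUS libraries and controls. The summed level of 6 oligodendrocyte markers was 1600 to 1967 FPKM after CUS and 391 to 1422 in the controls, and that of 12 microglial markers was 2630 to 3054 against 3288 to 9331, both without overlap. The 6 excitatory neuron markers summed to 30.2 to 50.1 FPKM after CUS, inside the control range of 26.0 to 135. Endothelial and pericyte markers summed to 184 to 283 FPKM, of which the lowest lay inside the control range of 24.3 to 190. Their part in the Dlx values was not tested.

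Within the male Sst controls, dated and numbered samples were compared because all CUS titles were dated. None of the 3 members tested in limma passed and none had an unadjusted p under 0.05, against 4.11% and 23.6% of 14230 genes. The log2 differences (dated minus numbered) were 0.15 (SE 0.35) for Gad1, -0.26 (SE 0.32) for Gad2 and -0.38 (SE 0.49) for Sox6. For the other 5 members the exact permutation p lay between 0.4 and 1, where 3 against 3 samples cannot go below 0.1.

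**Figure D4:**
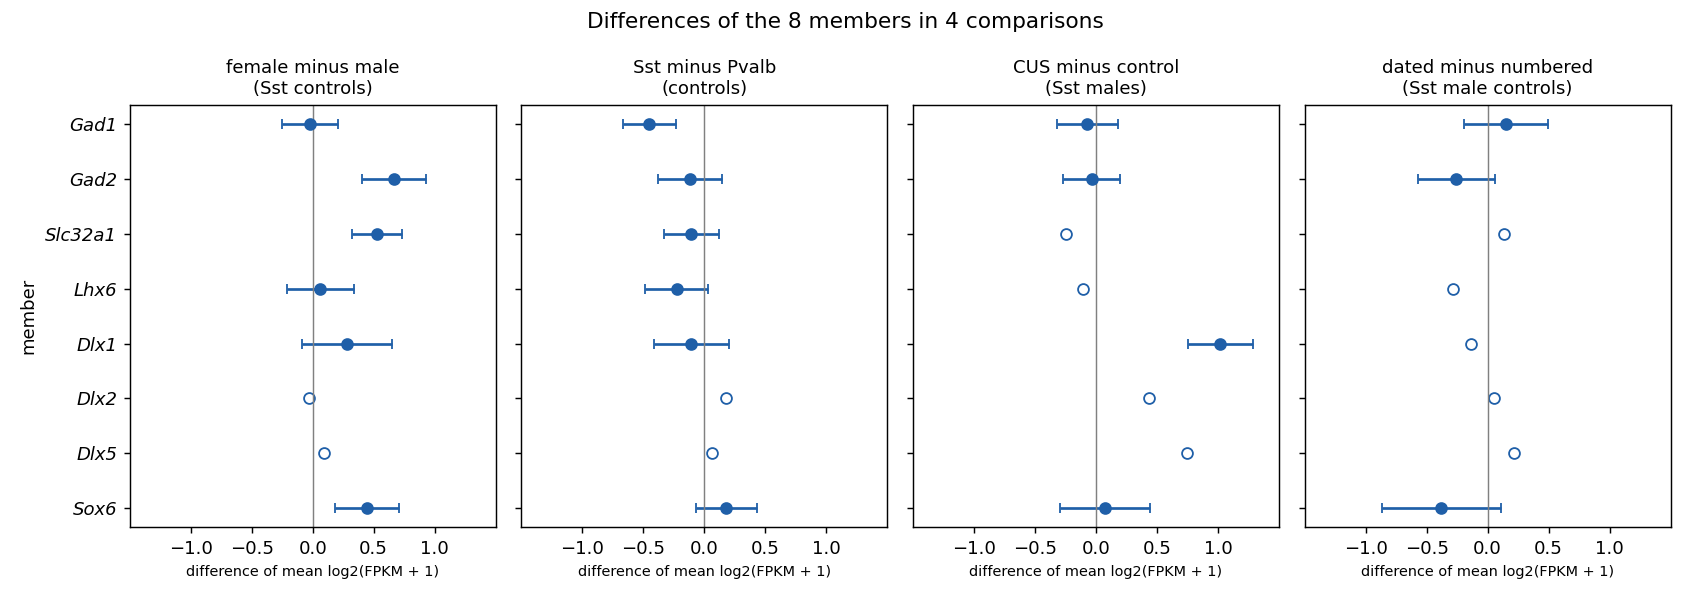
Difference of mean log2(FPKM + 1) (horizontal axis) for each member (vertical axis) in the 4 comparisons; filled points with SE bars are from limma and open points without bars are members below the low-value filter, tested by exact permutation. Dlx1 and Dlx5 lie farthest to the right after CUS (1.02 and 0.75), and Gad2 and Slc32a1 lie to the right in females (0.67 and 0.53).

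Ordered by group mean, Gad1 ran from Pvalb males (1.13 ± 0.653 FPKM, SD, n = 6) through dated male controls (0.609 ± 0.354, n = 3), females (0.544 ± 0.518, n = 7) and numbered male controls (0.469 ± 0.458, n = 3) to CUS (0.431 ± 0.0513, n = 3). Gad2 ran from females (1.48 ± 1.29 FPKM) through Pvalb males (1.08 ± 0.591), numbered males (0.613 ± 0.422) and CUS (0.408 ± 0.132) to dated males (0.322 ± 0.170). Each neighbour in these orders lay within 1 SD of the more variable of the pair. Slc32a1 was highest in females (0.892 ± 0.495 FPKM) and lowest after CUS (0.0843 ± 0.146), and Sox6 was highest in females (7.72 ± 1.54) and lowest in dated males (5.04 ± 2.76). Dlx1 was highest after CUS (1.48 ± 0.0967 FPKM) and next in females (0.904 ± 1.94), where a single sample carried the mean, since the other 6 females had 0 to 0.344 FPKM. The same sample held all of the females' Dlx2 (1.18 FPKM) and Dlx5 (1.62 FPKM).

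Other genes of the GABA pathway were read from a list of 10. The uptake carrier Slc6a11 had a mean of 107 FPKM over the 22 samples, and the betaine and GABA carrier Slc6a12 had the lowest mean of the list (0.649). In the sex comparison 2 of the 10 were higher in females and none lower, where 6.28% of all genes tested were called higher. Slc6a11 had means of 140 ± 33.3 FPKM in females and 64.5 ± 21.8 in males (log2 difference 1.16, SE 0.27, adjusted p = 0.0198 in limma), and Slc6a12 had 1.08 ± 0.306 and 0.292 ± 0.267 (0.70, SE 0.18, adjusted p = 0.0248). The male mean of Slc6a12 lay below the 0.4 FPKM filter, so it entered this fit only through its female values. All female titles were numbered. Slc6a11 was at 26.3 to 66.8 FPKM in dated males and at 65.8 to 93.1 in numbered males, and the numbered males overlapped the females (76.9 to 174). The part of the title kind in this sex difference was not tested. The median log2 difference of the list was 0.65, against 0.07 over all genes tested and 0.36 over the 6 members tested. Of 12 microglial markers 2 were called lower in females, with a median log2 difference of -0.61 over the list, and the 7 endothelial and pericyte markers had a median of 0.99 with none called. Their part in these values was not tested. In the line comparison 1 of 10 was lower in Sst samples, the neuronal chloride exporter Slc12a5 (1.37 against 3.58 FPKM, log2 difference -0.94, SE 0.27, adjusted p = 0.0374), where 4.5% of all genes were called lower. Markers of other cells moved in the same comparison. Of 6 excitatory neuron markers 4 were lower in Sst samples (median log2 difference -1.24), as were 2 of 8 markers of neurons in general (median -1.0), and 4 of 7 endothelial and pericyte markers were higher (median 1.67). Their part in this difference was not tested. None of the 10 passed in the CUS comparison, and none of the 9 tested passed between dated and numbered controls.

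Of 13 other interneuron transcription factors, Sp8 had the lowest mean (0.0381 FPKM). Satb1, a chromatin organiser of maturing Sst and Pvalb cells, was lower in Sst than in Pvalb samples (5.67 against 10.4 FPKM, log2 difference -0.76, SE 0.17, adjusted p = 0.0110 in limma). The excitatory neuron genes Camk2a (log2 difference -2.38) and Slc17a7 (-1.75) and the neuronal genes Snap25 (-1.87) and Rbfox3 (-1.79) were lower in the same comparison, and their part in the Satb1 value was not tested. Satb1 was the only gene of this list that passed in any of the 4 comparisons, in which 9 or 10 of the 13 could be tested.

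Across the 22 samples the members did not form a single pattern (Pearson r of log2(FPKM + 1), given as a description, with libraries of unequal depth). The closest pair of members was Dlx2 and Dlx5 (r = 0.86), both at 0 in most samples. Dlx1 ran with Dlx2 (0.81) and Dlx5 (0.76), and Gad1 with Gad2 at 0.50. Gad1 followed Slc17a7 more closely (0.74) than it followed Gad2, and ran against Sox6 (-0.64). Among 14566 genes with a mean above 0.4 FPKM, those most like Gad1 were Camk2n2 (r = 0.88), Ddx18 (0.88), Camta2 (0.86), Klhl34 (0.85) and Il1bos (0.85). Those most like Gad2 were Ece2 (0.88), the synaptic adhesion gene Nrxn3 (0.86), Krt222 (0.86), the glutamate receptor gene Gria3 (0.85) and Stxbp5l (0.85). For Sox6 they were B3galt1 (0.92), Acsl3 (0.92), Igdcc4 (0.92), Pfkp (0.91) and the zinc transporter gene Slc39a12 (0.90). For Dlx1 they were Fam187a (0.79), Cd24a (0.76), Mki67 (0.74), Syt4 (0.74) and Trappc2 (0.74). For Lhx6 and Slc32a1 the closest were Rpp25 (0.91) and Gm6313 (0.78).

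Cd24a encodes a surface protein of migrating neuroblasts and Mki67 a protein of dividing cells. Both were picked for likeness to Dlx1 over these same samples, so their CUS and SST-F levels follow in part from that choice. Cd24a was at 4.10, 5.07 and 4.80 FPKM in the CUS libraries and at 0 to 1.95 in the 6 male controls, without overlap. In all, 3.87% of genes tested were higher after CUS without overlap. Cd24a reached 22.5 FPKM in the female library SST-F, where Dlx1 was highest. Mki67 was at 1.44, 1.06 and 0.306 FPKM after CUS, and the lowest of these lay inside the control range of 0.124 to 1.05. Dcx, a microtubule gene of migrating neuroblasts that was chosen after its values were seen, was at 0.916, 0.567 and 0.466 FPKM after CUS, at 0 to 0.336 in the controls and at 4.77 in SST-F. Sox11, chosen in the same way, was at 2.09 to 2.65 FPKM after CUS, inside the control range of 0.715 to 4.68. Top2a was read as well, at 0.444 to 0.885 FPKM after CUS, and its lowest value lay inside the control range of 0 to 0.477. The relation of these genes to the Dlx levels was not tested.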

How the data were processed

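FPKM values of 23993 genes in 24 libraries were analysed as deposited. Per the labels' processing notes, the authors used TopHat2, Cufflinks and Cuffdiff on mm10; the study's methods also name HISAT2 and StringTie, and whether batch correction by ComBat entered these FPKM values is not given in the sources used here. No column belonged to a sample outside the series.

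Members were tested with limma 3.58.1 (R 4.3.3; trend and robust) on log2(FPKM + 1), two-sided, over genes with a mean above 0.4 FPKM in the samples compared, with p adjusted by Benjamini-Hochberg across every gene in the fit and called under 0.05. Members below that filter were tested with exact two-sided permutation tests (SciPy) of the mean log2 values, adjusted over 13 tests. The model was tested on simulated data. The named genes were the 8 members, the listed pathway genes that passed or were highest or lowest in mean (some results of this rule are not reported here), and the 5 genes with the highest Pearson r per member with a mean above 0.4 FPKM. Members and lists were chosen with earlier results of these data known. Replicate numbers were not used to pair the samples in the main fits. Alternatives changed the filter, pseudocount (0.1, 5), scaling, averaging, samples and block. Promoters came from RefSeq, and transcript lengths from GENCODE.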

Additional observations from a re-analysis of the deposited data

Results flagged for a closer look

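In each control group of 6 or 7 samples, the gap between the extreme sample and its neighbour was set against the whole range of the group, for 23 member and group combinations. The gap was past Dixon's 95% limit in 9, and 5 of the 9 were in the Sst female library SST-F. Chance gives about 1 group in 20 only for normally spread values and separate samples. Low FPKM values with many at 0 need not meet this, and the combinations share libraries, so 9 cannot be read against that rate. In 3 of the 9 every other sample of the group was listed at 0, so that any value above 0 would pass and the rate of 1 in 20 does not hold for them. In SST-F Gad2 (4.33 FPKM against 1.52 in the next female) and Dlx1 (5.29 against 0.344) were above the other females. So were Dlx2 (1.18 against 0) and Dlx5 (1.62 against 0), and Sox6 (4.51 FPKM) was below them. Among male Sst controls, the numbered library 4 stood above the rest in Lhx6 (1.48 against 0.267 FPKM) and Dlx1 (1.11 against 0.232). Among Pvalb males, library 3 held all of the group's Dlx5 (0.498 FPKM), and the averaged pair stood above the rest in Sox6 (12.04 against 5.30 FPKM).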

How the results depend on the processing

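With 870 values recomputed in all, the count of members past the threshold, 0 in each of the 4 comparisons, stayed at 0 but for 3 cases. It was 1 after CUS against numbered controls (Dlx5), 1 in the line comparison without SST-F and both averaged pairs (Gad1), and 0 to 1 in the line comparison when each sample was left out, 1 being without the averaged Pvalb pair (Gad1). Dlx5 was listed at 0 in all numbered controls and passed the filter there only through its CUS values. The count stayed at 0 for the exact tests and for the sex, CUS and title series comparisons whichever sample was left out. The exact tests had little room to move. With all samples their smallest possible p was 0.0238 for CUS and 0.1 for title series, before adjustment over 13 tests. Of 32 single-member log2 differences, 11 kept their sign in the alternatives that gave a value and 21 changed it somewhere, all of them uncalled. Members below the filter of an alternative were given by their mean log2 difference, an addition made after the data were seen. The causes were not tested.

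For sex, the sign changed for Gad1 with libraries counted singly (0.048) or numbered males (0.056), for Lhx6 with pseudocount 0.1 (-0.050), quantile normalization (-0.00013), numbered males (-0.078) or those without SST-F (-0.0021), for Dlx5 with dated males (-0.019) or pseudocount 0.1 (-0.0085), for Dlx2 with pseudocount 5 (0.00074), and for Dlx1 with numbered males without SST-F (-0.14) or the libraries of the replicate block unpaired (-0.23). For line, it changed with female Sst controls for Dlx1 (0.022), Gad2 (0.19) and Slc32a1 (0.14), with male Sst controls for Sox6 (-0.061), with numbered Sst controls for Gad2 (0.030), without the high-Xist Pvalb libraries for Lhx6 (0.35), Dlx1 (0.31), Dlx5 (-0.037), Slc32a1 (0.23) and Sox6 (-0.10), and without SST-F and both pairs for Dlx5 (-0.057). For CUS, it changed with libraries counted singly for Gad1 (0.00014), Gad2 (0.013) and Sox6 (-0.015), with numbered controls for Gad1 (0.0076) and Sox6 (-0.11), with both sexes for Sox6 (-0.17), with pseudocount 0.1 for Gad2 (0.015), with dated controls for Lhx6 (0.040, 0.035 at a common median, 0.023 with pseudocount 0.1) and for Gad2 (0.094, also unfiltered, 0.086 at a common median, 0.30 with pseudocount 0.1). Between title series, Dlx1 changed with pseudocount 0.1 (0.17).

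With each sample left out in turn, the sex differences ran from -0.15 to 0.073 (Gad1), -0.064 to 0.25 (Lhx6), -0.067 to 0.44 (Dlx1), -0.19 to 0.037 (Dlx2) and -0.11 to 0.15 (Dlx5). Those of line ran from -0.21 to 0.047 (Slc32a1) and -0.043 to 0.16 (Dlx5). Those of CUS ran from -0.17 to 0.0092 (Gad1), -0.10 to 0.053 (Gad2), -0.27 to 0.082 (Lhx6) and -0.15 to 0.20 (Sox6). Those between title series ran from -0.051 to 0.39 (Gad1), -0.0050 to 0.30 (Slc32a1), -0.55 to 0.10 (Lhx6), -0.32 to 0.22 (Dlx1), -0.10 to 0.19 (Dlx2) and -0.65 to 0.088 (Sox6).

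Deviations of same-numbered samples from their group means correlated at -0.045 to 0.18. Differently numbered samples were not set beside them, so whether the numbers pair the samples cannot be told from this check. With the replicate block, 0 members were called for sex and for line, Gad1 for sex had a log2 difference of 0.15 (also 0.15 in the unpaired fit of those libraries, where Dlx5 for line was -0.10), and all called genes went from 24 to 11 for sex and from 1655 to 1190 for line. CUS and title series groups share no numbers. Depth limits all members but Sox6.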

Other observations

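By some members the Sst female libraries fell into sets, and these members did not share a direction. Lhx6 was at 0.712, 1.09 and 1.34 FPKM in female libraries 1, 3 and 4, and at 0, 0 and 0.0988 FPKM in libraries 2, 5 and 6. Gad1 (0.432, 0.535 and 0.794 against 0.184, 0 and 0.292 FPKM) and Sox6 (9.18, 8.88 and 8.37 against 7.91, 7.67 and 7.50) split in the same direction. Slc32a1 and Dlx1 overlapped between these sets, and Dlx2 and Dlx5 were listed at 0 in all of these libraries. Gad2 ran the other way, at 0.783, 0.597 and 0.886 FPKM in libraries 1, 3 and 4 and at 1.13, 1.52 and 1.14 in libraries 2, 5 and 6, as did Sst, at 5.06, 4.18 and 5.17 FPKM against 10.1, 18.2 and 16.7. SST-F had the highest Gad2 and Sst (49.3 FPKM) with Lhx6 listed at 0. The libraries were set side by side after their values were seen, and no test was run. The share of all genes that split these libraries without overlap was not counted, so these splits cannot be told from the background. Another comparison of 3 against 3 samples, dated with numbered male controls, gives a scale. There 2337 of 14230 genes were higher and 2426 lower without overlap.

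Dlx1 and Lhx6 were both above 0.8 FPKM in only 4 of the 22 samples, the numbered male Sst library 4 and the 3 Pvalb libraries with high Xist.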
